A study of Mus musculus with 4 samples.

Results

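Frizzled receptors, the Wnt co-receptor Lrp6 and secreted Wnt antagonists were followed in mouse aorta through all probe sets that name exactly 1 of 10 genes: Fzd1, Fzd2, Fzd4, Fzd6, Fzd7, Lrp6, Sfrp1, Sfrp2, Frzb and Dkk3. There were 21 such probe sets among 22626, and 10 genes among 12393. The arrays measured aortic RNA of 6-week-old female mice without apolipoprotein E, a protein that clears lipoprotein remnants from blood. All 4 groups carried this defect (apoE-/-) and had 1 array each: C3H/HeJ (C3H below) on Western diet, C3H on chow, C57BL/6 on Western diet and C57BL/6 on chow. Mice were weaned onto chow at 3 weeks, and at 4 weeks they either changed to Western diet or stayed on chow for 2 weeks. The labels do not say how many animals gave the RNA of an array. Without replicates the differences below have no replicate check, and the small number of arrays limits precision.

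Frizzled proteins are membrane receptors that bind Wnt ligands through a cysteine-rich domain outside the cell. Together with Lrp5 or Lrp6 they stabilise beta-catenin, which enters the nucleus and activates target genes with TCF/LEF factors. Secreted frizzled-related proteins (Sfrp1, Sfrp2 and Frzb, also called Sfrp3) carry a related cysteine-rich domain and bind Wnt ligands outside the cell, whereas classical Dickkopf proteins block the Lrp co-receptors. In vessels, Wnt signals are known to act on endothelial growth, smooth muscle and adventitial fibroblasts.

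Signals were quantile-normalized intensities, and a signal at or under 83.6, the 40th percentile of all values, was treated as a bound. Of the 21 probe sets, 14 were above this floor on all 4 arrays, 4 on 3 arrays and 2 on 2 arrays, while a probe set of Fzd7 was under it throughout. The C3H chow array stood apart. Its log2 signals correlated with those of the other arrays at 0.704 to 0.727, where the other pairs reached 0.744 to 0.761 (Pearson r across 22626 probe sets, which all arrays share, as a description). Its ratio of 3' to 5' actin signal was also the highest, at 2.28, where the others had 1.63 to 1.83. The same ratio for Gapdh did not set it apart, at 1.19, where the others had 1.03 to 1.28. It enters both the strain comparison on chow and the diet response of C3H. It does not enter the strain comparison on Western diet or the diet response of C57BL/6. Smooth muscle markers of the aorta were present, with 8 of 8 above the floor on every array. As bulk tissue was measured, fewer cells of a type and less RNA per cell cannot be told apart.

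**Figure D1:**
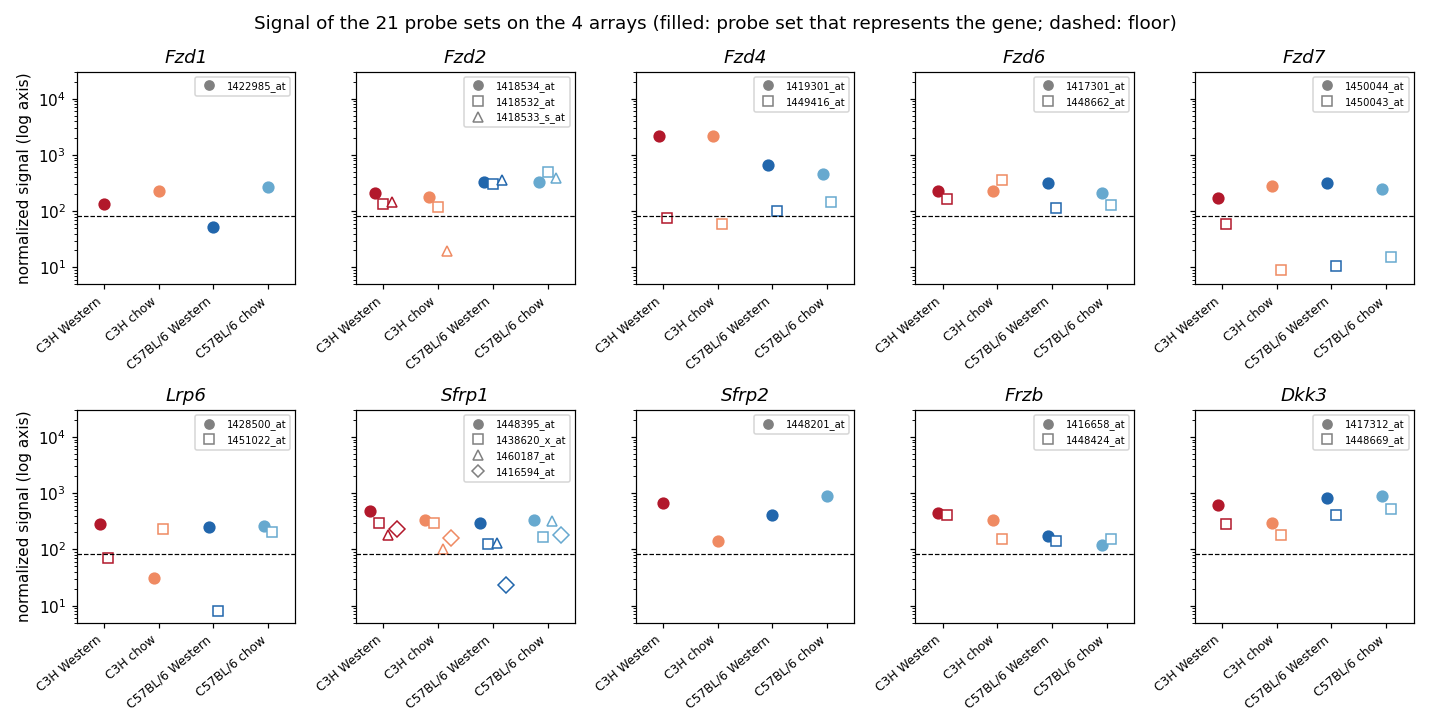
Normalized signal (log axis) of each of the 21 probe sets on the 4 arrays, 1 panel per gene; each point is 1 array, filled where the probe set represents its gene, and the dashed line is the floor of 83.6. Fzd4 by 1419301_at reads 2190 and 2193 on the C3H arrays against 665.2 and 453.6 on the C57BL/6 arrays, and Sfrp2 is lowest on C3H chow at 139.7.

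The brightest probe set on average stood for each gene, and a 2-fold difference was counted only with both signals over the floor. On chow, 2 of 9 measured genes were at least 2-fold higher in C3H (Fzd4 and Frzb) and 2 were lower (Sfrp2 and Dkk3), beside 8.01% and 9.1% of all genes measured. On Western diet, 2 of 9 were higher in C3H (again Fzd4 and Frzb, beside 4.07% of all genes) and 0 were lower (4.2%). With Western diet in C57BL/6, 0 of 9 were higher (3.75%) and 1, Sfrp2, was lower (3.93%). In C3H, 2 of 9 were higher with Western diet (Sfrp2 and Dkk3, 6.47%) and 0 were lower (5.87%). The medians over the measured members were log2 -0.01 on chow and 0.22 on Western diet between strains (0.03 and 0.003 over all genes), and -0.03 in C57BL/6 and 0.21 in C3H for diet (0.00 and -0.01). The first and the third of these medians changed sign under another scaling. The remaining gene had an array under the floor in each comparison and enters none of these counts (Lrp6 on chow and for diet in C3H, Fzd1 in the others).

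Counted by probe set, chow gave 3 of 17 past 2-fold upwards in C3H and 5 downwards, beside 8.2% and 8.94% of all probe sets. Western diet gave 4 and 2 of 16 (4.17% and 4.24%). The diet comparison within C57BL/6 gave 0 and 2 of 17 (3.79% and 3.97%), and within C3H it gave 3 and 1 of 16 (6.4% and 5.95%). Sets that name one gene disagreed among themselves by a pooled SD of log2 0.506 to 0.616 over 2047 to 2202 genes. Among the members, 4 of 5 genes with several measured sets pointed one way between strains on chow, 4 of 5 on Western diet, 3 of 6 for diet in C57BL/6 and 5 of 5 for diet in C3H. On chow the 4 include Frzb, whose set 1448424_at had log2 0.002, and -0.02 with equal array medians. These counts leave out pairs with an array under the floor. Within them the widest gap was log2 2.45, for Sfrp1 between strains on chow. Sets with a bound lay further apart still: those of Fzd4 between strains on chow (2.27 against at most -0.83) and those of Lrp6 for diet in C3H (at least 1.79 against at most -1.49).

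**Figure D2:**
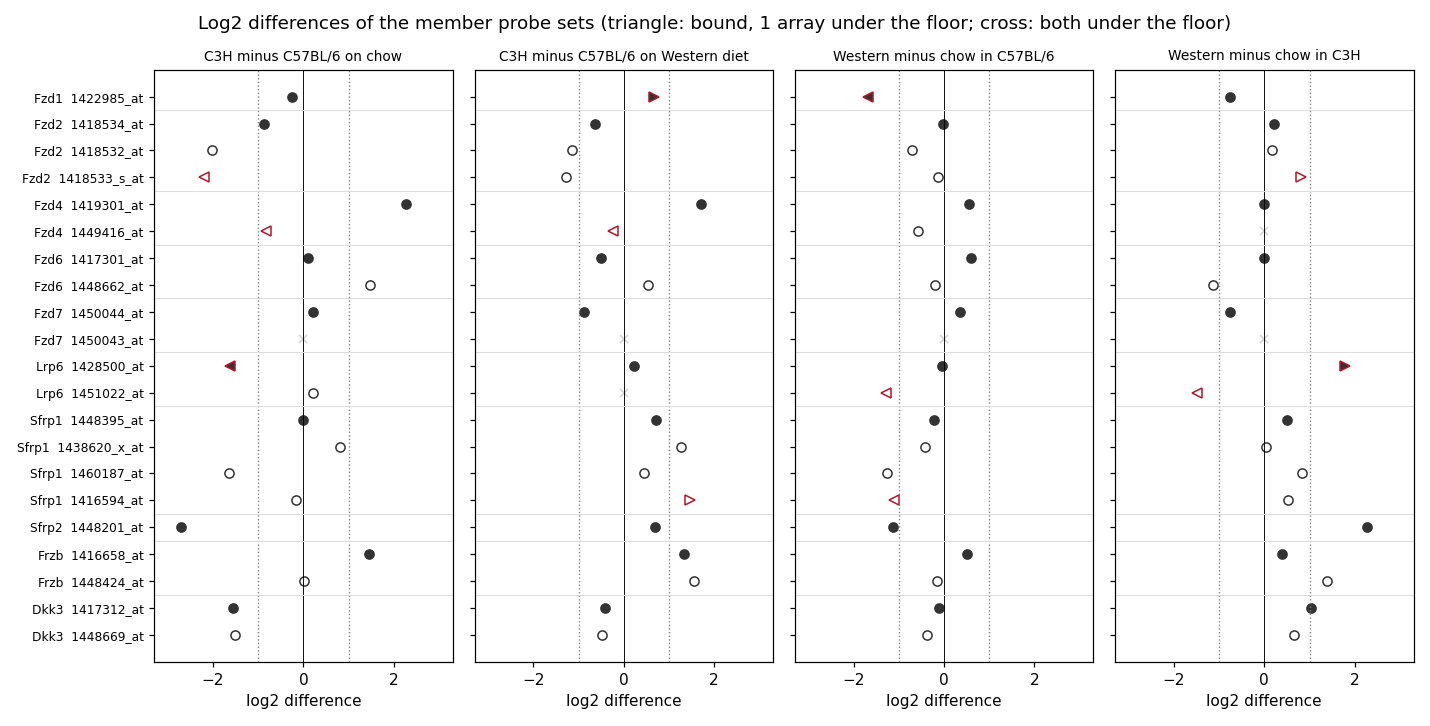
Log2 differences (horizontal axis) of the 21 probe sets in the 4 comparisons, with filled symbols for the probe set that represents the gene, triangles for bounds with 1 array under the floor, crosses where both arrays were under it and dotted lines at 2-fold. Fzd4 and Frzb lie right of the upper line in both strain comparisons by their representative sets, the 3 Fzd2 sets lie left of 0 in both, and Sfrp2 changes side between the diet responses.

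An additive limma fit with terms for strain and diet tested 14915 probe sets, 20 of the 21 among them. Its residual, with 1 degree of freedom beside a prior of 17.3, is the strain-by-diet interaction, so any true difference between the diet responses is treated as noise. For strain it called 0.121% of probe sets higher and 0.261% lower in C3H at an adjusted p of 0.05, and 1 member probe set, of Fzd4, was among them. At an unadjusted p under 0.05 there were 6 of the 20 member probe sets for strain, beside 5.85% of all probe sets. They belong to 4 genes, with 1 set each of Fzd4 and Frzb higher in C3H and 2 each of Fzd2 and Dkk3 lower. For diet it called 0.0% in either direction and no member. At an unadjusted p under 0.05 there were 367 probe sets for diet (2.46%). Of the 20 member probe sets 1 was among them, 1451022_at of Lrp6, lower with Western diet. Without a mean trend in its variance prior, the limma fit called 0 probe sets for strain (804 at an unadjusted p under 0.05), Fzd4 included. The smallest two-sided p of an exact permutation test between pairs of arrays is 0.333, so none was run.

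Fzd4, the receptor that also binds the vascular ligand norrin and is needed for normal retinal vessels, showed the widest strain difference that held on both diets among the representative sets. Probe set 1419301_at had signals of 2190 on C3H Western and 2193 on C3H chow, against 665.2 on C57BL/6 Western and 453.6 on C57BL/6 chow. Both C3H arrays were above both C57BL/6 arrays. Such a split of 2 against 2 arrays has an exact two-sided permutation p of 0.333 at the smallest. The share of all probe sets split this way was not counted. The differences were 3.29-fold higher in C3H on Western diet and 4.84-fold higher on chow, with a fitted log2 strain difference of 2.00 (SE 0.31, limma adjusted p = 0.00249). That adjusted p was 0.756 without the mean trend.

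The other Fzd4 probe set, 1449416_at, did not follow. It read 76.6 and 58.4 in C3H on Western diet and chow, both under the floor, against 98.9 and 148.5 in C57BL/6. It was therefore at least 1.18-fold lower in C3H on Western diet and at least 1.78-fold lower on chow, and its limma adjusted p for strain was 0.92. The platform annotation gives both sets the same source accession, and where each lies on the transcript was not analysed here. The Fzd4 difference accordingly rests on 1 of 2 probe sets.

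With diet, Fzd4 by 1419301_at was 1.47-fold higher on Western diet than on chow in C57BL/6 and 1.0-fold in C3H. In the limma fit the log2 diet term was 0.28 (SE 0.31, adjusted p = 1.0). Markers of endothelium, a cell type known for Fzd4, did not separate the strains in sum. Their 8 signals added to 6366 and 6010 in C3H on Western diet and chow, against 6980 and 5826 in C57BL/6, and single markers went both ways. Kdr, the main VEGF receptor, was 2.28-fold and 2.04-fold higher in C3H on these diets, while Vwf, von Willebrand factor, was 1.94-fold and 1.24-fold lower and Pecam1 1.07-fold and 1.3-fold lower. Cardiac muscle markers did separate them, with sums of 572 and 533 in C3H against 12868 and 16421 in C57BL/6, and adipocyte markers were highest on C3H chow (106682, against 58633 to 76685 on the other arrays). Their part in the Fzd4 result was not tested.

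Start regions are shown for Fzd4, the member called in the limma fit, and for Sfrp2, whose diet responses passed 2-fold in opposite directions in the strains. The sequences are from RefSeq (build GRCm38.p6, a C57BL/6J genome), 250 bases before to 50 after the start its table uses, 5′ to 3′ on the gene's strand. For Sfrp2 that start lies inside the annotated gene, downstream of its outermost start. Capitals mark the GC box letters GGGCGG on either strand (CCGCCC on the other). The C3H sequence was not used here.
Fzd4, chr7:89404116-89404415 (+): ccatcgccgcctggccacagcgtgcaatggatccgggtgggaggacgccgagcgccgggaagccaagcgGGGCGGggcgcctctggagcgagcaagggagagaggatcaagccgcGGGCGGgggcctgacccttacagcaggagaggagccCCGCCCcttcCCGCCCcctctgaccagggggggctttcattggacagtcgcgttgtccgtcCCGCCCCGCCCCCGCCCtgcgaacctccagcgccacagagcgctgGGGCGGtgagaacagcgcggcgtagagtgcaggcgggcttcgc
Sfrp2, chr3:83766071-83766370 (+): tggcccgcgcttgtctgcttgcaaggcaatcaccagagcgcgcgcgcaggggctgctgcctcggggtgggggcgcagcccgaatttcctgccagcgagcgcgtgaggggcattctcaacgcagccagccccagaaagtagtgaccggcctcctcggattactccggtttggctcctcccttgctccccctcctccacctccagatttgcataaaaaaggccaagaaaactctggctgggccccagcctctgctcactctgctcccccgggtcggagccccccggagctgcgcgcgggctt

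The Fzd4 window held 8 GC boxes, counting overlapping matches, and the Sfrp2 window 0, where 35.7% of all 32851 windows of this length hold at least 1. Of the 5 members with a window in the table (Fzd1, Fzd4, Fzd7, Sfrp2 and Frzb), 3 held a GC box. The TCF/LEF core letters CTTTGAT and CTTTGAA, searched on both strands, were in 0 of these 5 windows and in 8.65% of all windows. The windows of Fzd4 and Sfrp2 were 72.7% and 66.0% G and C, beside a median of 52.7% over all windows. These are descriptions of the letters in the windows and say nothing of factor binding.

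Fzd2, a receptor best known for Wnt5a signals that do not use beta-catenin, was lower in C3H by all 3 of its probe sets on both diets. Set 1418532_at read 135.3 and 120.3 in C3H on Western diet and chow, against 298.1 and 487.6 in C57BL/6, and was 2.2-fold lower on Western diet and 4.05-fold lower on chow. Set 1418533_s_at, whose suffix marks probes shared by several transcripts, read 145.8 and 19.3 in C3H, against 353.0 and 384.5 in C57BL/6, and was 2.42-fold and at least 4.6-fold lower. The representative set 1418534_at read 211.0 and 182.0, against 328.6 and 334.5, and was 1.56-fold and 1.84-fold lower, under the 2-fold line.

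In each of the 3 Fzd2 sets the C3H arrays lay under the C57BL/6 arrays without overlap, a split whose share over all probe sets was not counted. The platform annotation gives these 3 sets the same source accession. All 3 missed the threshold of the limma fit, with adjusted p-values for strain of 0.398 to 0.847 and fitted log2 differences of -2.80 to -0.76. The diet differences of Fzd2 ran from 1.02-fold to 1.64-fold in C57BL/6 and 1.12-fold to 1.16-fold in C3H, leaving out pairs with a bound. The exception is 1418533_s_at in C3H, at least 1.74-fold higher on Western diet, because its C3H chow signal was under the floor.

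Fzd1, a receptor able to signal through beta-catenin, was low on a single array. Its only probe set read 132.1 on C3H Western and 224.9 on C3H chow, against 53.2 on C57BL/6 Western and 269.2 on C57BL/6 chow. It was lower on Western diet than on chow in both strains, by 1.7-fold in C3H and at least 3.22-fold in C57BL/6. The fitted log2 diet term was -1.55 (SE 0.78, limma adjusted p = 1.0).

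Fzd6, a receptor of planar cell polarity known from hair patterning in mice, gave a different account by each probe set. Set 1417301_at read 224.7 and 225.2 in C3H on Western diet and chow, against 315.9 and 209.3 in C57BL/6, with no difference beyond 1.51-fold. Set 1448662_at read 164.4 and 361.4 in C3H, against 112.9 and 130.2 in C57BL/6, so the C3H signal was 1.46-fold higher on Western diet and 2.78-fold higher on chow. By this set C3H was 2.2-fold lower on Western diet than on chow, while C57BL/6 was 1.15-fold lower. The high value of the second set came from the C3H chow array, the one that stood apart.

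Fzd7, the Frizzled closest in sequence to Fzd1 and Fzd2, read 170.1 and 285.5 in C3H on Western diet and chow, against 312.4 and 245.8 in C57BL/6, by set 1450044_at. The strains overlapped, with C3H 1.84-fold lower on Western diet and 1.16-fold higher on chow. Western diet went with 1.68-fold less signal than chow in C3H and with 1.27-fold more in C57BL/6. The further set stayed at 9.06 to 60.2, under the floor, and gives no difference.

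Lrp6, the co-receptor, had 1 low array by one set and 2 by the other, and the sets did not match. Set 1428500_at read 288.3 on C3H Western and 31.5 on C3H chow, against 247.3 on C57BL/6 Western and 255.8 on C57BL/6 chow. Set 1451022_at was under the floor on both Western arrays (71.4 in C3H and 8.07 in C57BL/6) and read 234.9 and 202.9 on the chow arrays of C3H and C57BL/6. By 1428500_at, C3H on chow was at least 3.06-fold lower than C57BL/6, whereas by the other it was 1.16-fold higher. The diet response of C3H was at least 3.45-fold higher by one and at least 2.81-fold lower by the other, so no direction is given for Lrp6.

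Sfrp2, a secreted antagonist made by fibroblasts and mesenchymal cells, had the widest range of the representative sets that were above the floor on all arrays. Its single probe set read 672.2 on C3H Western and 139.7 on C3H chow, against 413.8 on C57BL/6 Western and 908.6 on C57BL/6 chow. Both extremes were chow arrays. Relative to C57BL/6, C3H had 6.5-fold less signal on chow and 1.62-fold more on Western diet. With Western diet Sfrp2 was 4.81-fold higher in C3H and 2.2-fold lower in C57BL/6, a difference of responses of log2 3.40 for which the 4 arrays allow no test. In the limma fit, which assumes no such difference, the strain term had an adjusted p of 0.847.

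Dkk3, a secreted Dickkopf family member whose action on Wnt signals varies between cell types, was lowest on C3H chow by both probe sets. Set 1417312_at read 611.1 and 298.1 in C3H on Western diet and chow, against 810.5 and 881.0 in C57BL/6. Set 1448669_at read 288.5 and 183.8, against 405.4 and 526.8. Both C3H arrays were under both C57BL/6 arrays in each set, again without a count of such splits over all probe sets. By these sets Dkk3 was 1.33-fold and 1.41-fold lower in C3H on Western diet, and 2.96-fold and 2.87-fold lower on chow, with fitted log2 strain differences of -0.99 and -1.01 (limma adjusted p = 0.698 and 0.82). With Western diet the sets were 2.05-fold and 1.57-fold higher in C3H and 1.09-fold and 1.3-fold lower in C57BL/6.

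Frzb, an antagonist first known from cartilage, was higher in C3H on both diets by set 1416658_at, which read 438.6 and 334.5 in C3H on Western diet and chow, against 173.4 and 121.9 in C57BL/6. These are 2.53-fold on Western diet and 2.74-fold on chow, with no overlap between the strains, a split not counted over all probe sets. The fitted log2 strain difference was 1.40 (SE 0.53), and its limma adjusted p of 0.708 missed the threshold. By set 1448424_at, Frzb read 405.6 and 155.9 in C3H, against 139.0 and 155.8 in C57BL/6. It was 2.92-fold higher in C3H on Western diet and 1.0-fold on chow, so its sets shared the difference on Western diet only. With Western diet Frzb was 1.31-fold and 2.6-fold higher in C3H by these sets, and in C57BL/6 1.42-fold higher by the first and 1.12-fold lower by the other.

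Sfrp1, which binds Wnt ligands and Frizzled receptors, had 4 probe sets that disagreed on chow. The representative set 1448395_at read 473.7 and 336.6 in C3H on Western diet and chow, against 290.1 and 338.6 in C57BL/6. The other sets ranged from 181.1 to 299.1 on C3H Western and from 101.5 to 291.3 on C3H chow, against 23.7 to 132.6 on C57BL/6 Western and 167.1 to 318.2 on C57BL/6 chow. All 4 sets were higher in C3H than in C57BL/6 on Western diet, by 1.63-fold, 2.4-fold, 1.37-fold and, with the C57BL/6 signal under the floor, at least 2.78-fold. On chow their log2 differences ran from -1.65 to 0.80. All 4 sets were lower on Western diet than on chow in C57BL/6, by 1.17-fold to 2.4-fold where both signals passed the floor, and 1.03-fold to 1.78-fold higher in C3H.

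**Figure D3:**
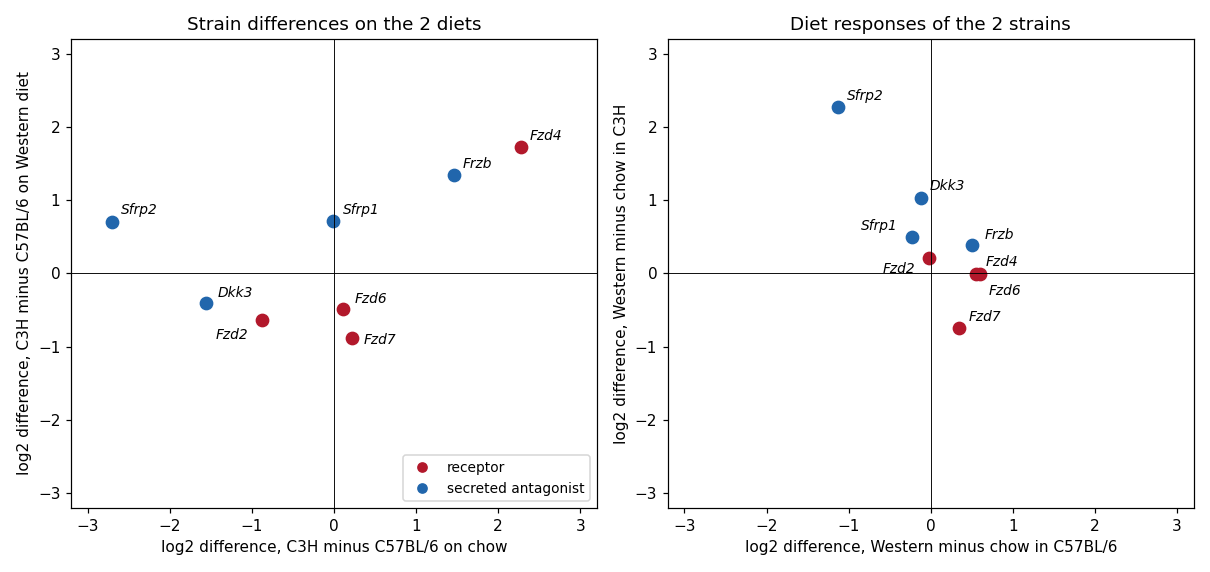
Log2 differences of the representative probe set of each member, for the strain differences on chow (horizontal axis) and Western diet (vertical axis) on the left (8 genes) and the diet responses of C57BL/6 (horizontal axis) and C3H (vertical axis) on the right (8 genes), with receptors in red and secreted antagonists in blue; genes with an array under the floor are left out. Fzd4 (2.27 and 1.72) and Frzb (1.46 and 1.34) are upper right on the left, and Sfrp2 (-1.14 and 2.27) stands apart on the right.

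Diet responses were then set side by side for the 8 genes measured on all 4 arrays. Dkk3, Sfrp1 and Sfrp2 were higher with Western diet in C3H (log2 1.04, 0.49 and 2.27) and lower in C57BL/6 (-0.12, -0.22 and -1.14). Frzb was higher in both (0.39 in C3H and 0.51 in C57BL/6). Among the receptors Fzd7 was lower in C3H (-0.75) and higher in C57BL/6 (0.35). Fzd4 and Fzd6 had responses of 0.55 and 0.59 in C57BL/6. In C3H theirs were -0.002 and -0.003, and both were above 0 with equal array medians. Fzd2 had 0.21 in C3H and -0.03 in C57BL/6, the second being 0.06 with equal array medians. The C3H response minus that of C57BL/6 had a median of log2 0.06, with 4 genes above 0 and 4 below. That median was -0.16 over 6 genes for a floor at the 60th percentile. It was 0.595 with the mean of all sets of a gene above the floor on both arrays of a response. Every C3H response here is taken against the array that stood apart.

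Fibroblast and matrix markers moved across the arrays as Sfrp2 did in part. Their 8 signals summed to 34158 and 17882 in C3H on Western diet and chow, against 25824 and 70992 in C57BL/6, so the chow arrays were again the lowest and the highest. On chow 7 of 7 measured fibroblast markers were at least 2-fold lower in C3H (median log2 -1.92), beside 9.1% of all genes. With Western diet in C57BL/6 6 of 8 were at least 2-fold lower (median -1.28), beside 3.93% of all genes. Smooth muscle markers summed to 73110 and 45055 in C3H, against 76705 and 102889 in C57BL/6. Dkk3 was likewise lowest on C3H chow and highest on C57BL/6 chow. The part of these cell types in the values of Sfrp2 and Dkk3 was not tested.

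**Figure D4:**
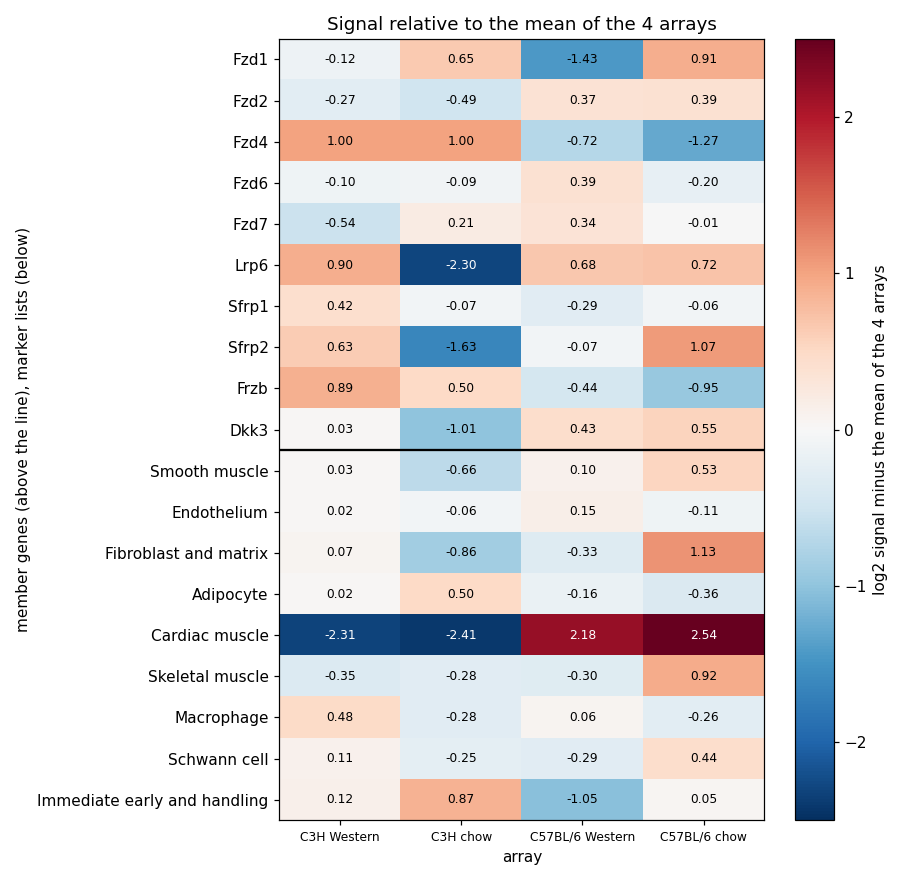
Log2 signal minus each row's mean over 4 arrays (colour and printed value) of the 10 members by their representative set, above the line, and of the summed signals of 9 marker lists, below it; columns are the 4 arrays, and signals under the floor are shown as measured. Sfrp2 runs from -1.63 on C3H chow to 1.07 on C57BL/6 chow, where the fibroblast and matrix list has -0.86 and 1.13, and the cardiac list has -2.31 and -2.41 on the C3H arrays against 2.18 and 2.54 on the C57BL/6 arrays.

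Sums of the other lists were as follows. Macrophage markers had 5829 and 3441 in C3H on Western diet and chow, against 4346 and 3492 in C57BL/6, and Schwann cell markers (5 of 8 named on the array) had 3325 and 2590, against 2531 and 4178. Most of each Schwann cell sum was Pmp22 (2684 and 1891, against 2116 and 3689). S100b went another way and was lowest on C57BL/6 chow, at 38.5. Skeletal muscle markers had 552 and 579, against 571 and 1333, with Tnni2 and Actn3 under the floor on every array, and the fat hormone gene Lep was under it too. Immediate early genes, which respond to tissue handling, had 5828 and 9818 in C3H, against 2582 and 5560 in C57BL/6. Single genes went both ways. On chow 3 of 7 measured were at least 2-fold higher in C3H (8.01% of all genes) and 1 was lower (9.1%). The lower was Fos, at 519.4 against 1487. Fosb was above the floor only on C57BL/6 chow (121.9), and Nr4a1 alone had 4274 on C3H chow. In C3H the atrial markers Myl7 and Myl4 and the troponins Tnnt2 and Tnni3 were under the floor on both diets. The rest of the cardiac list was not. Pln was above the floor on both C3H arrays (179.9 on Western diet and 200.1 on chow). Nppa (120.5) and Myh6 (131.6) were above it on C3H Western only, and Actc1 (111.5) on C3H chow only.

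Genes most like Sfrp2 over the 4 arrays were named by the smallest root mean square difference of log2 signal after centring each gene on its mean, among 5645 genes above the floor on all arrays. They were Nsmce1, a subunit of the SMC5/6 complex (0.19), Col4a5, a basement membrane collagen (0.19), Bgn, the matrix proteoglycan biglycan (0.23), Fblim1, a focal adhesion protein (0.24), and Itga8, an integrin chain (0.31). Bgn read 12000 and 3643 in C3H on Western diet and chow, against 10260 and 17600 in C57BL/6. Its 2 further sets ran the same way, with C3H lower on chow by log2 -1.69 and -1.63. The further set of Nsmce1 did not, with signals of 137.1 to 155.9 on all arrays. That of Fblim1 was lower in C3H on both diets (log2 -0.88 on Western diet and -2.18 on chow), where its representative set had 0.30 on Western diet. The further set of Col4a5 kept the direction of the first in each comparison.

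Among other genes of the Wnt pathway, few ligands were measurable in these arrays. Of 19 Wnt ligands on the array, 1 was above the floor on all arrays (Wnt11) and 7 were under it on all. Counts here are of genes above the floor on both arrays, and genes given by a bound were added after their values were seen. How often all genes pass 2-fold by a bound was not counted. For genes named by a bound alone, further sets were not examined. Between strains, 0 of 3 measured ligands differed at least 2-fold on chow, where by bounds Wnt9b was at least log2 1.60 higher in C3H and Wnt6 lower, at -1.41 or below. On Western diet Wnt11, at 234.9 in C3H against 96.1 in C57BL/6, was 2.44-fold higher and Wnt2, at 106.1 against 260.8, was 2.46-fold lower. Wnt7a was at least log2 1.18 higher in C3H on Western diet. Wnt11 was 2.26-fold lower with Western diet in C57BL/6 and 1.1-fold lower in C3H, where Wnt6 and Wnt7a were higher by at least log2 1.65 and 1.18.

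Of 12 other receptors and co-receptors on the array, 3 to 5 were measured on both arrays of a comparison, and 0 of these differed at least 2-fold. By bounds, however, 2 further Frizzled genes did, a count with no share of all genes to set it beside. Fzd8 read 213.3 and 80.4 (just under the floor) in C3H on Western diet and chow, against 261.7 and 223.2 in C57BL/6. It was lower in C3H on chow, at log2 -1.42 or below, and at least 1.35 higher with Western diet in C3H. Fzd3 read 202.0 and 34.9 in C3H, against 15.3 and 26.1 in C57BL/6, and was at least log2 1.27 higher both in C3H on Western diet and with Western diet in C3H. Lrp5 was under the floor on all arrays. Other secreted regulators included Sost, the bone antagonist sclerostin that binds Lrp5 and Lrp6. Sost read 981.8 and 210.2 in C3H on Western diet and chow, against 409.3 and 553.5 in C57BL/6. It was 2.4-fold higher in C3H on Western diet, 2.63-fold lower on chow and 4.67-fold higher with Western diet within C3H. Its further set read 328.0 and 18.7, against 135.5 and 370.3, with the same order of the strains on each diet. Sfrp4 was 2.47-fold lower in C3H on chow (319.1 against 789.4). Of 13 such regulators on the array, only these 2 were measured on both chow arrays. Both were at least 2-fold lower in C3H, beside 9.1% of all genes. By bounds Apcdd1 was at least log2 1.25 higher in C3H on chow and correspondingly lower with Western diet in C3H, at -1.25 or below. Notum was at least 1.29 higher in C3H on Western diet, and Sostdc1 at least 1.08 higher with Western diet in C57BL/6.

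Of the 16 genes of the intracellular pathway, 2 of 10 measured were at least 2-fold higher in C3H on chow (8.01% of all genes) and 0 lower (9.1%). On Western diet 1 of 11 was higher (4.07%) and 1 lower (4.2%). Dvl1, which relays the signal from Frizzled, read 749.4 and 745.9 in C3H on Western diet and chow, against 343.2 and 238.0 in C57BL/6. It was 2.18-fold and 3.13-fold higher, and its further set had log2 differences of 0.42 and 0.72. Axin1, a scaffold of the complex that destroys beta-catenin, was 2.53-fold higher in C3H on chow (221.0 against 87.4, just above the floor). The further set of Axin1 was at least log2 1.21 higher there, with its C57BL/6 signal under the floor. Tle3, a co-repressor of TCF factors, was 2.71-fold lower in C3H on Western diet (107.0 against 290.4), while its further sets differed in the other direction. With Western diet in C3H, Wls, which carries Wnt ligands to the cell surface, was 2.3-fold higher (710.9 against 308.5) and Gsk3b, a kinase of the destruction complex, was 2.64-fold lower (119.2 against 314.3), beside 0 of 11 past 2-fold in C57BL/6. By bounds in C3H on chow, Gsk3b and Porcn were at least log2 1.91 and 1.51 higher and Tcf7l2 lower, at -1.49 or below. With Western diet in C3H, Tcf7l2 was at least 1.30 higher, and Porcn and Axin1 were lower, at -1.51 and -1.40 or below.

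Of 10 beta-catenin target genes on the array, 3 or 4 were measured in each comparison, and Axin2 and Sp5 were under the floor on every array. On chow 1 of 3 was at least 2-fold lower in C3H, beside 9.1% of all genes. This was Ccn5, a matricellular protein gene, with 128.1 against 467.5 (3.65-fold). The others, Nkd1 and Ccnd1, were 1.53-fold and 1.51-fold higher in C3H. In the other comparisons 0 of those measured on both arrays differed at least 2-fold. Myc, a growth regulator, read 9.74 and 176.9 in C3H on Western diet and chow, against 123.8 and 69.95 in C57BL/6. By bounds it was at least log2 1.08 higher in C3H on chow and lower with Western diet in C3H, at -1.08 or below.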

How the data were processed

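Biotin-labelled cRNA from 8 ug of Trizol-extracted aortic RNA was hybridised to 1-colour Affymetrix arrays, per the labels' protocols. The authors deposited 1 linear intensity for each of 22690 probe sets. What software made them is not given in the labels. The arrays share a trimmed mean of 250.11 to 250.12, and their medians range from 110.3 to 128.1.

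After 64 control probe sets were left out, intensities were quantile normalized on the log2 scale (limma 3.58.1, R 4.3.3). Names came from the platform annotation (20380 probe sets name 1 gene, 691 several, 1555 are unnamed here). Entrez identifiers of all 21 member probe sets matched RefSeq, and 0 symbols changed. Where 1 array of a pair was under the floor, it was raised to the floor and the fold is given as "at least". Other pathway genes were named where at least 2-fold different with both arrays above the floor. Those given by a bound were added after their values were seen. The limma fit used a mean trend in eBayes, adjusted p-values by Benjamini-Hochberg, and was tested on simulated data. The members, lists and floor were chosen with earlier results of these data known. Python 3.11.15, numpy 2.4.6, pandas 2.3.3 and matplotlib 3.10.9 were used for the rest. Alternatives were other scalings, floors, fold thresholds, probe set rules and variance priors.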

Additional observations from a re-analysis of the deposited data

Results flagged for a closer look

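Sfrp2 (1448201_at) was the one member whose diet responses passed 2-fold in opposite directions in the 2 strains, with the response of C3H exceeding that of C57BL/6 by log2 3.40. Its signals were 672.2 on C3H Western and 139.7 on C3H chow, against 413.8 on C57BL/6 Western and 908.6 on C57BL/6 chow. The difference was not tested, since each response compares 1 array with 1 array. The C3H chow array, which stood apart from the others, is the low one, and Sfrp2 has no further probe set.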

How the results depend on the processing

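No paired analysis was possible because each group has 1 array. Medians, counts and single genes were recomputed under other scalings, floors and probe set rules. Of the single genes at least 2-fold different, 0 reversed. A changed floor only adds or drops values, so it could not reverse a gene. Medians and counts were not scored for reversal. The mean of all sets of a gene took only sets above the floor on both arrays of a comparison. For Fzd4 between strains it left out the other set, whose C3H signals were under the floor. It therefore repeated the values of the representative set (log2 2.27 on chow and 1.72 on Western diet) and could not reverse them. The number of members at least 2-fold different between strains on chow was 4, and 2 when the floor was the 60th percentile. On Western diet it was 2, and 6 at a 1.5-fold threshold. For diet in C57BL/6 it was 1, and 2 for a floor at the 25th percentile, no floor or at 1.5-fold. For diet in C3H it was 2, and 1 under cyclic loess, a floor at the 60th percentile or the mean of all sets of a gene, and 4 at 1.5-fold. The limma calls for strain were 57, and 0 without the mean trend, 119 without a filter and 27 with 1 probe set per gene; those for diet were 0, and 5 without a filter (none a member). The median over members between strains on chow was 0.001 with the deposited values and 0.03 with cyclic loess, and the one for diet in C57BL/6 was 0.06 with equal array medians. Equal medians moved the median of all genes for diet in C3H to log2 0.11, and the share of higher among all calls to 66.0% there (52.4% in the reported setting) and to 36.5% between strains on chow (46.8%). With the mean of all sets, log2 differences were 0.73 for Frzb and 0.79 for Fzd6 between strains on chow and -0.02 for Fzd4 with diet in C57BL/6. Fzd2 then passed 2-fold lower in C3H on both diets (-1.02 on Western diet and -1.45 on chow). The members split into 2 higher and 1 lower on Western diet and 1 higher and 3 lower on chow. Fzd4 is among the higher on both diets, by its representative set alone. Fzd4 in limma had adjusted p-values of 7.97e-07 to 0.00888 under the other alternatives, and 0.756 without the mean trend. Quantile normalization without the C3H chow array, chosen after seeing the data, left the counts of the 2 comparisons it allows at 2 and 1. An additive fit without that array leaves no residual degree of freedom. The cause of these changes was not tested. Signals under the floor of 83.6 limit Fzd1, Lrp6 and the further sets of Fzd4 and Fzd7.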
